A study of Mus musculus with 18 samples.

Results

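Adipocyte and lipid droplet genes were examined in day 3 cultures of mouse stromal PA6 cells, grown alone or beneath differentiating embryonic stem (ES) cells. The set was a list of 40 genes that mark fat cells or handle their lipid: hormones and other secreted proteins, lipid droplet proteins, transcription factors of fat cell formation, and the enzymes and carriers of triglyceride. Genes were kept where 3 or more of the 18 arrays detected a probe of that name (detection p below 0.05), which held for 34 of the 40, among 16446 genes tested in all. RETN, PPARGC1A, CD36 and FABP4 were detected on 0 arrays, the best probe of UCP2 on 1 array and that of THRSP on 2, which left these 6 genes outside the limit, while SLC2A4 and PCK1 stood just inside it with 3 arrays each.

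RNA was hybridised to MouseWG-6 v2.0 bead arrays of Illumina, on which every probe returns 1 fluorescence intensity for a sample. PA6 mono-cultures and ES/PA6 co-cultures spent 3 days in serum-free medium that held no growth factor (-GFs), 20 ng/ml of FGF2 or 10 ng/ml of BMP4, and each of the 6 groups had 3 arrays. The ES cells carried a green fluorescent reporter knocked in at the tau gene, PA6 is a single stromal line of mouse calvarial origin known for its capacity to form fat cells, and RNA of a co-culture mixed both cell populations. The labels call the replicates biological and describe 1 well per condition in each, and the arrays are named here by group and replicate number. On the arrays 17125 to 20412 probes were detected, replicate arrays correlated at 0.981 to 0.992, and no pair of arrays was identical.

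A fat cell stores triglyceride in a lipid droplet coated by perilipin and CIDE proteins. PPARG and the C/EBP factors switch on the genes of droplet formation, fatty acid uptake and triglyceride synthesis as a stromal precursor becomes a fat cell, and the mature cell secretes adiponectin and adipsin. BMP4 is known for committing mesenchymal precursors towards the fat lineage, whereas FGF2 is a growth factor with a wide range of targets in stromal cells.

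Both culture types were checked against defining markers. All 10 stromal markers were detected on every PA6 array, with a summed intensity of 160000 to 192000, against 59300 to 93500 in the co-cultures. ADIPOQ and CFD, which encode adiponectin and adipsin, reached 11.59 ± 0.162 and 12.26 ± 0.325 on the log2 scale in PA6 cells in -GFs medium (mean ± SD, n = 3), where the lowest detected probe of an array lay between 5.83 and 6.39. FABP4, CD36 and RETN, which also define mature fat cells, were not detected in any group, so the adipocyte label was borne out by some of its defining genes and not by these. In PA6 cells in -GFs medium PLIN was detected on no array and LIPE on 1 of 3. CIDEC, PPARG, CEBPA and LPL were detected on all 3 arrays of that group. Of 10 pluripotency markers 9 were detected on all co-culture arrays and 1 on all PA6 arrays.

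Upstream sequences are shown for 4 genes that were higher with BMP4 in PA6 cells, co-cultures or both, to show the stretch in which motifs were searched. They are the 250 bases before the RefSeq transcription start on mouse build GRCm38.p6, written 5′ to 3′ on the strand of the gene. Capitals mark a match to the C/EBP motif TTGCNNNAA in PLIN (chr7:79732777-79733026, minus strand, first base 187 before the start) and to the palindrome GGCGCC, bound by BMP-activated SMAD proteins, in ACSL1 (chr8:46470787-46471036, plus strand, 133 before the start). A second window of ACSL1 (chr8:46490716-46490965, plus strand), not shown, held neither motif. ADIPOQ (chr16:23146286-23146535, plus strand) and CFD (chr10:79890603-79890852, plus strand) held neither motif and are in lower case throughout.
PLIN: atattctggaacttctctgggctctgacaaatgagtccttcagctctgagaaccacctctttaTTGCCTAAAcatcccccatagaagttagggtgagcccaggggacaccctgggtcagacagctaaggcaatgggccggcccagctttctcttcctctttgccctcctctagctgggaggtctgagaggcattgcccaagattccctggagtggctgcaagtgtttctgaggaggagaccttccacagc
ACSL1: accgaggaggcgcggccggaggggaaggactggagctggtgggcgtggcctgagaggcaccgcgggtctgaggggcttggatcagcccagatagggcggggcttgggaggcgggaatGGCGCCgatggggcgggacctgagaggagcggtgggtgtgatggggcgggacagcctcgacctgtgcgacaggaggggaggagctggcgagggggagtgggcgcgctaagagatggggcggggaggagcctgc
ADIPOQ: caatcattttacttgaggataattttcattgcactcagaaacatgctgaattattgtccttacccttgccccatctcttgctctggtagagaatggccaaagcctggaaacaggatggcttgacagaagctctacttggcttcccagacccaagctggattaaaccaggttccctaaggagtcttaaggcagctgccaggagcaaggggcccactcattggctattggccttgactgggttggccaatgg
CFD: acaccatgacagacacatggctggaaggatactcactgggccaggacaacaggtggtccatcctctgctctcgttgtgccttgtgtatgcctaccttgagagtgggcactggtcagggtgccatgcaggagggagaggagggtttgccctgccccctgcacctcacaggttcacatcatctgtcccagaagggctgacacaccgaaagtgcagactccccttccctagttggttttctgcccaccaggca
Of the 40 listed genes, 30 had such a window in the RefSeq table, and both strands were searched. A gene counted when any of its windows held the motif, so genes with more windows had more occasions for a match. The 30 genes had 41 windows, and the 27025 genes of the table had 32851. The C/EBP motif occurred in 5 of the 30 (16.7%, against 9.36% of all genes of the table), in PLIN, PCK1, THRSP, UCP2 and ZFP423. The palindrome occurred in 6 (20%, against 10.8%), in ACSL1, PPARG, CEBPA, KLF15, LEP and ADIPOR1. The direct repeat bound by PPAR receptors, 2 copies of AGGNCA with 1 base between them, was found in 0 of the 30 and in 0.4% of all genes. None of the 30 genes held more than 1 of these motifs, and a match describes the sequence only.

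The first comparison asked how FGF2 changed these genes in the stroma alone. In PA6 mono-cultures FGF2 lowered the secreted markers ADIPOQ and CFD, the droplet protein CIDEC, and LPL, GPD1, CPT1A and CAR3, and raised ANGPTL4. A gene was called when its adjusted p in limma was under 0.1 and its log2 fold change over 1 in size. By that rule 8 of the 34 kept genes were called (5.27% of all genes tested), of which 7 were lower (2.56% of all genes) and 1 was higher (2.71%). In 17 of the 34 all FGF2 arrays lay below all -GFs arrays, which held for 17.5% of all genes. The median log2 change over the 34 genes was -0.38, and over all genes -0.01.

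The same question was asked of BMP4. In PA6 mono-cultures BMP4 raised the droplet protein PLIN, the uptake genes LPL, FABP5 and AQP7 and the triglyceride synthesis genes AGPAT2, DGAT2 and ACSL1, and lowered ANGPTL4 and CAR3. That is 9 of the 34 genes (1.41% of all genes), 7 higher (0.839%) and 2 lower (0.572%). Among the 7, PLIN and AQP7 passed the detection limit through these same BMP4 arrays. In 15 of the 34 all BMP4 arrays lay above all -GFs arrays (11.1% of all genes). The median log2 change was 0.50 over the 34 genes and 0.01 over all genes. Of the named genes, 3 were called for both factors, which share the -GFs arrays: LPL changed by -2.75 with FGF2 and 1.26 with BMP4, ANGPTL4 by 2.33 and -1.25, and CAR3 was lower with both.

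In ES/PA6 co-cultures fewer of the genes were called. FGF2 lowered ADIPOQ, G0S2 and CAR3 (3 of 34, with 3.34% of all genes called in either direction and 1.2% lower) and raised 0 (2.14% of all genes). BMP4 raised ADIPOQ, CFD and ACSL1 (3 of 34, with 0.76% of all genes called in either direction and 0.31% higher) and lowered 0 (0.45%). Unadjusted limma p values under 0.05 were seen for 8 of the 34 genes with FGF2 and 12 with BMP4, and for 2924 and 1786 of all 16446 genes. All FGF2 arrays lay below all -GFs arrays in 6 genes (9.43% of all genes), and all BMP4 arrays above them in 8 (6.06%). Median log2 changes over the 34 genes were -0.18 with FGF2 and 0.18 with BMP4, next to -0.01 and -0.00 over all genes. These values come from the fit without a replicate term. Arrays with the same number deviated together in every pair of co-culture groups (r of 0.325 to 0.521, 9 pairs), and with the replicate number as a block 5 genes were called with FGF2 (3.55% of all genes) and 7 with BMP4 (1.31%).

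**Figure D1:**
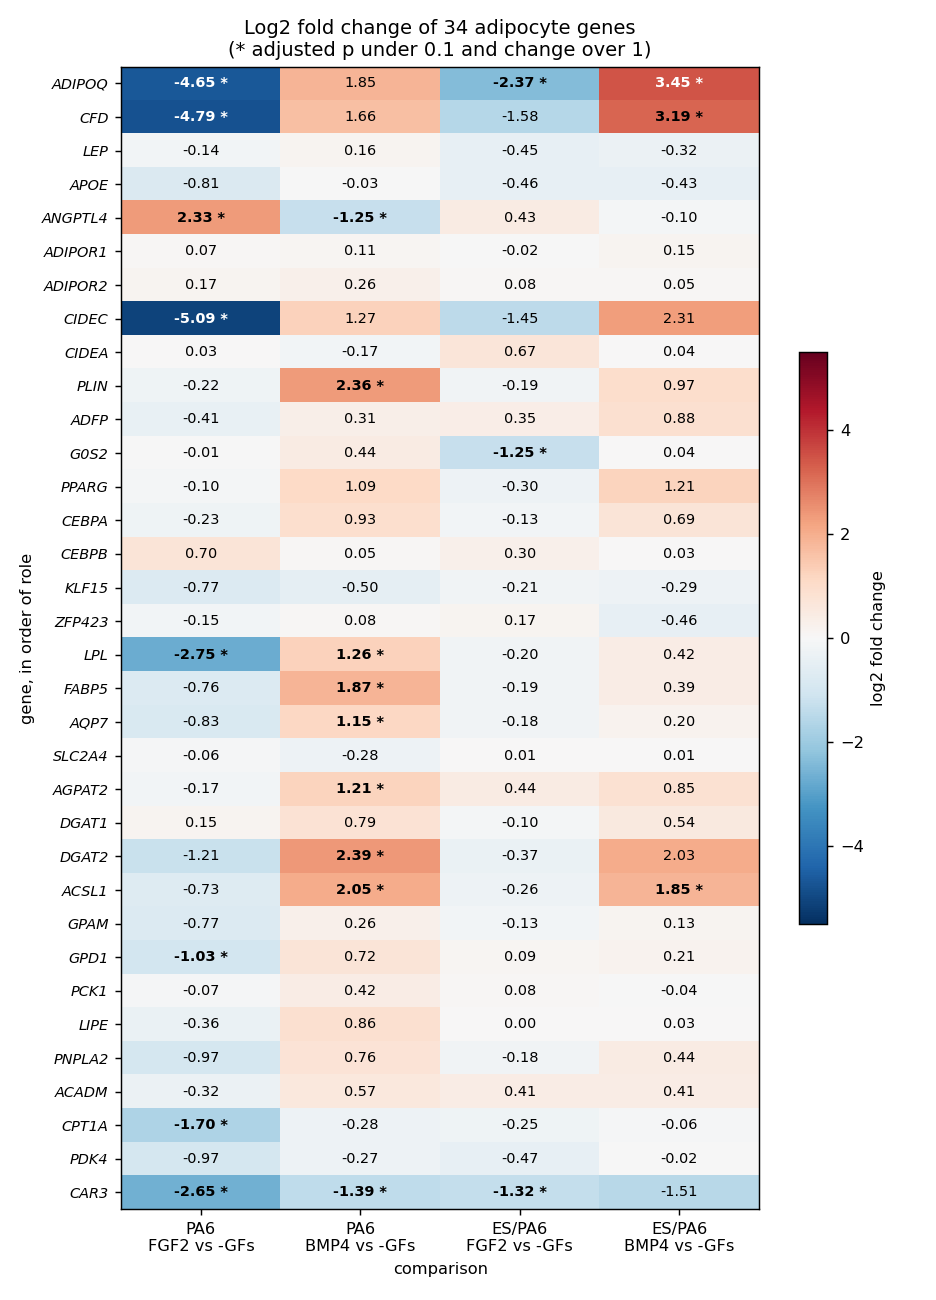
Log2 fold change of the 34 kept genes (rows, in order of role) against -GFs in 4 comparisons (columns), from 1 limma fit without a replicate term; asterisks and bold type mark called genes. Blue entries gather in the FGF2 columns and red ones in the BMP4 columns, with ADIPOQ at -4.65 and 1.85 in PA6 cells and at -2.37 and 3.45 in co-cultures. For a gene not detected in one of the groups the entry is a fitted value, and the text gives a bound where it was called.

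Of the secreted proteins, ADIPOQ and CFD moved in both culture types and ANGPTL4 in PA6 cells. ADIPOQ (probe ILMN_2738082) encodes adiponectin, the insulin-sensitising hormone of fat cells. On the arrays of replicates 1, 2 and 3, in that order here and below, its log2 level in PA6 cells was 11.42, 11.74 and 11.62 in -GFs medium, 7.52, 6.94 and 6.36 with FGF2 and 12.95, 14.33 and 13.05 with BMP4. In the co-cultures it was 8.03, 9.92 and 7.18 in -GFs medium, 6.65, 6.02 and 5.34 with FGF2 and 11.73, 13.18 and 10.58 with BMP4. Every FGF2 array was below, and every BMP4 array above, each -GFs array of the same culture type. ADIPOQ fell with FGF2 in PA6 cells (log2 fold change -4.65, SE 0.658, adjusted p = 1.28e-04) and in co-cultures (-2.37, SE 0.658, adjusted p = 0.0413). With BMP4 it rose in co-cultures (3.45, SE 0.658, adjusted p = 0.0214), whereas in PA6 cells the change of 1.85 had an adjusted p of 0.198.

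CFD (probe ILMN_2835423) encodes adipsin, a complement protease that fat cells secrete. In PA6 cells its log2 level was 11.94, 12.59 and 12.24 in -GFs medium, 7.51, 7.91 and 6.98 with FGF2 and 13.47, 14.69 and 13.58 with BMP4. In the co-cultures it was 8.90, 10.61 and 7.39 in -GFs medium, 7.74, 8.22 and 6.22 with FGF2 and 11.59, 13.71 and 11.17 with BMP4. The FGF2 arrays lay below all -GFs arrays in PA6 cells and overlapped them in co-cultures, and the BMP4 arrays lay above in both culture types. CFD fell with FGF2 in PA6 cells (-4.79 ± 0.734, adjusted p = 2.81e-04; log2 fold change ± SE) and rose with BMP4 in co-cultures (3.19 ± 0.734, adjusted p = 0.0596). In co-cultures with FGF2 the change was -1.58 with an adjusted p of 0.273, and of 0.00348 with replicate as a block, which made it a called gene there. In PA6 cells with BMP4 the change was 1.66 with an adjusted p of 0.349.

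ANGPTL4 (probe ILMN_2759365) encodes a secreted inhibitor of lipoprotein lipase. In PA6 cells its log2 level was 8.79, 9.26 and 9.52 in -GFs medium, 11.93, 11.08 and 11.56 with FGF2 and 8.22, 7.79 and 7.82 with BMP4, so that the groups followed each other without overlap in the order BMP4, -GFs, FGF2. It rose with FGF2 (2.33 ± 0.221, adjusted p = 2.55e-06) and fell with BMP4 (-1.25 ± 0.221, adjusted p = 0.00581) in these cells. In the co-cultures it was 10.20, 9.92 and 9.88 in -GFs medium, 10.66, 10.44 and 10.20 with FGF2 and 10.06, 9.70 and 9.94 with BMP4, and the changes of 0.43 and -0.10 were not called. A second kept probe of ANGPTL4 (ILMN_2424627), detected on 4 arrays, had log2 changes with FGF2 and BMP4 of -0.14 and 0.02 in PA6 cells, where the first probe had 2.33 and -1.25, and of -0.43 with FGF2 in co-cultures, where the first had 0.43. LEP and APOE, which encode leptin and a lipoprotein ligand, were not called for either factor. LEP was detected on 9 of the 18 arrays and its log2 group means ran from 5.76 to 6.41, close to the detection limit.

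**Figure D2:**
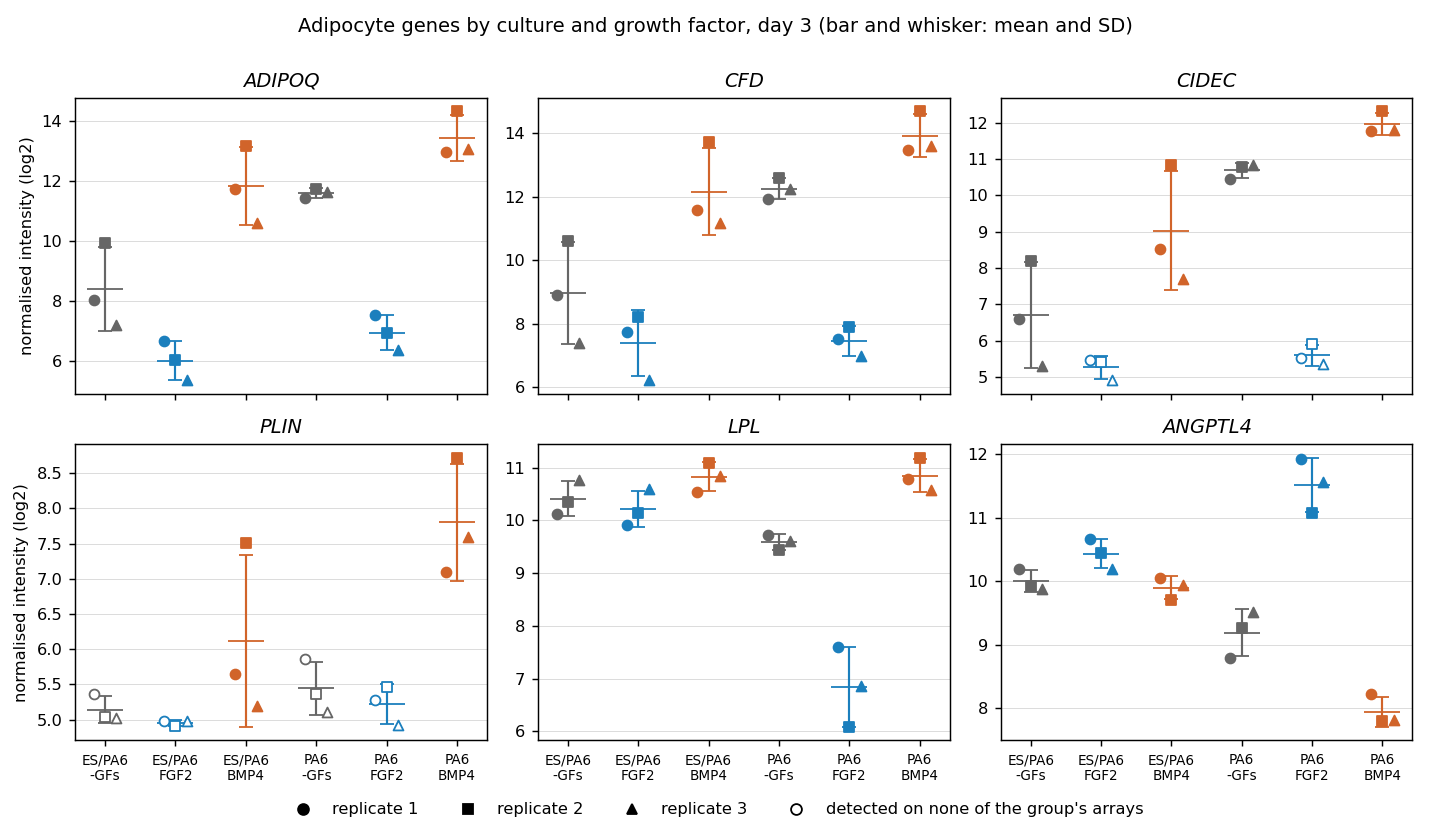
Normalised log2 intensity of 6 genes (y axis) on every array of the 6 groups (x axis); symbols stand for replicates 1 to 3, horizontal bars and whiskers for mean and SD (n = 3), and open symbols for groups in which no array detected the probe. ADIPOQ and CFD were lowest with FGF2 and highest with BMP4 in each culture type, LPL was lowest in PA6 cells with FGF2, at 6.84, and ANGPTL4 highest there among the PA6 groups, at 11.52.

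The adiponectin receptors moved little. ADIPOR1 and ADIPOR2 were detected on all 18 arrays, their log2 group means lay between 11.76 and 12.46, and their changes with either factor ran from -0.02 to 0.26 with no call.

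Among the 5 lipid droplet proteins, CIDEC and PLIN were called in PA6 cells and G0S2 in co-cultures. CIDEC enlarges droplets by lipid transfer between them. Its log2 level in PA6 cells was 10.45, 10.78 and 10.84 in -GFs medium and 11.77, 12.32 and 11.80 with BMP4, and the 3 FGF2 arrays, none of which detected the probe, read 5.54, 5.90 and 5.35. CIDEC was at least 21.5-fold lower with FGF2 in PA6 cells (adjusted p = 5.54e-05), a bound set by the lowest signal detected on those arrays. With ES cells present it read 6.61, 8.21 and 5.32 in -GFs medium, 5.46, 5.43 and 4.91 with FGF2, again not detected, and 8.53, 10.85 and 7.70 with BMP4. The co-culture difference with FGF2 was at least 1.79-fold (adjusted p = 0.26) and that with BMP4 a log2 change of 2.31 (adjusted p = 0.13). With replicate as a block their adjusted p values were 0.032 and 0.00757, past the threshold.

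PLIN, now named Plin1, encodes perilipin 1, which guards the droplet surface against lipases. It was detected on all 3 BMP4 arrays of PA6 cells, at 7.09, 8.72 and 7.59 on the log2 scale, and on 1 other array, the co-culture BMP4 array of replicate 2. It read 5.86, 5.36 and 5.11 in PA6 cells in -GFs medium and 5.28, 5.47 and 4.92 with FGF2, not detected in either group. Its co-culture levels were 5.37, 5.04 and 5.02 in -GFs medium, 4.98, 4.91 and 4.98 with FGF2 and 5.65, 7.51 and 5.20 with BMP4. PLIN was at least 2.83-fold higher with BMP4 in PA6 cells (adjusted p = 0.0114). It passed the detection limit through the group in which it was highest, as did AQP7 and LIPE, each detected on the 3 PA6 BMP4 arrays and on 1 other array. CIDEA passed it in the same way through the co-culture FGF2 arrays.

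ADFP, now named Plin2 and found on droplets of many cell types, was detected everywhere. Its log2 level in PA6 cells was 10.00, 10.31 and 10.44 in -GFs medium, 9.84, 9.99 and 9.71 with FGF2 and 10.24, 11.25 and 10.19 with BMP4. In co-cultures it was 8.62, 8.57 and 8.38 in -GFs medium, 9.11, 8.89 and 8.62 with FGF2 and 8.68, 10.70 and 8.81 with BMP4, and no growth factor change was called. G0S2 restrains the lipase PNPLA2. It read 10.90, 10.60 and 10.95 in -GFs medium, 10.55, 11.08 and 10.79 with FGF2 and 11.07, 11.79 and 10.89 with BMP4 in PA6 cells, with overlapping FGF2 and -GFs arrays. In co-cultures it read 10.40, 10.79 and 9.79 in -GFs medium, 9.24, 9.44 and 8.54 with FGF2 and 10.31, 11.26 and 9.53 with BMP4, and it fell with FGF2 (-1.25 ± 0.371, adjusted p = 0.0578), with each FGF2 array below each -GFs array. CIDEA, a relative of CIDEC linked to brown fat, was detected on the 3 co-culture FGF2 arrays and 1 further array. It read 5.88, 5.29 and 5.46 in -GFs medium, 6.33, 6.31 and 6.01 with FGF2 and 5.51, 5.40 and 5.83 with BMP4 in co-cultures, where the FGF2 arrays lay above the others. In PA6 cells, which did not yield a detected value, it read 4.90, 5.49 and 5.07 in -GFs medium, 4.92, 5.59 and 5.03 with FGF2 and 4.80, 5.22 and 4.92 with BMP4, and it was not called for either factor.

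Of the 5 kept transcription factors, 0 were called by limma against -GFs medium in the fit without a replicate term. Their unadjusted limma p values under 0.05 numbered 2 and 2 with FGF2 and BMP4 in PA6 cells, next to 4277 and 2078 over all 16446 genes. In co-cultures they numbered 0 and 2, next to 2924 and 1786. PPARG is the nuclear receptor that drives fat cell formation. In PA6 cells it read 10.36, 10.34 and 10.29 in -GFs medium, 10.21, 10.32 and 10.17 with FGF2 and 10.97, 12.07 and 11.22 with BMP4. With ES cells present it read 8.70, 9.09 and 7.87 in -GFs medium, 8.49, 8.68 and 7.60 with FGF2 and 9.66, 10.68 and 8.94 with BMP4. BMP4 arrays of PA6 cells lay above all others of PA6 cells, while in co-cultures the BMP4 array of replicate 3 lay within the -GFs range. The change with BMP4 was 1.09 in PA6 cells (adjusted p = 0.221) and 1.21 in co-cultures (adjusted p = 0.214, and 0.00719 with replicate as a block, past the threshold). A further kept probe, ILMN_1221893, was detected on 4 arrays, the 3 PA6 BMP4 arrays and 1 co-culture BMP4 array, and passed the detection limit through them. Its BMP4 change of 1.51 in PA6 cells is a fitted value against a group in which it was not detected. Its fitted values differed from the first probe by more than 1 in other comparisons. They were -2.21 against -1.18 between FGF2 and BMP4 in PA6 cells and -0.77 against -1.78 between the culture types.

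CEBPA, a partner of PPARG in mature fat cells, read 8.14, 8.68 and 8.21 in -GFs medium, 7.70, 8.04 and 8.59 with FGF2 and 8.96, 9.77 and 9.08 with BMP4 in PA6 cells. Its co-culture levels were 5.81, 6.23 and 5.95 in -GFs medium, 5.82, 5.61 and 6.17 with FGF2 and 5.90, 8.0 and 6.16 with BMP4, near the detection limit except on the BMP4 array of replicate 2. CEBPB acts early in fat cell formation and was among the brightest of these genes, with 13.79, 13.80 and 13.85 in -GFs medium, 14.51, 14.59 and 14.46 with FGF2 and 13.77, 13.87 and 13.95 with BMP4 in PA6 cells. In co-cultures it read 12.94, 13.07 and 12.17 in -GFs medium, 13.30, 13.25 and 12.54 with FGF2 and 12.89, 12.95 and 12.44 with BMP4. Its FGF2 arrays in PA6 cells lay above the -GFs arrays, with a log2 change of 0.70 (adjusted p = 0.0448) that stayed under the fold limit. KLF15 and ZFP423, a late and an early regulator of the lineage, were not called for either factor.

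Among genes of uptake and transport, LPL, FABP5 and AQP7 were called, all of them in PA6 cells. LPL encodes lipoprotein lipase, which frees fatty acids from lipoproteins. Its log2 level in PA6 cells was 9.73, 9.43 and 9.61 in -GFs medium, 7.59, 6.08 and 6.86 with FGF2 and 10.78, 11.19 and 10.58 with BMP4, 3 ranges without overlap. In co-cultures it was 10.12, 10.34 and 10.77 in -GFs medium, 9.91, 10.14 and 10.59 with FGF2 and 10.54, 11.09 and 10.85 with BMP4, where the FGF2 and -GFs arrays overlapped. LPL fell with FGF2 in PA6 cells (-2.75 ± 0.303, adjusted p = 1.23e-05) and rose with BMP4 (1.26 ± 0.303, adjusted p = 0.0368), while in co-cultures the changes were -0.20 and 0.42 with adjusted p values of 0.832 and 0.728.

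FABP5, a fatty acid binding protein of many tissues, read 6.95, 6.90 and 6.94 in -GFs medium, 6.59, 6.42 and 5.48 with FGF2 and 8.40, 9.68 and 8.33 with BMP4 in PA6 cells. With ES cells present it read 6.29, 6.56 and 6.64 in -GFs medium, 5.98, 6.49 and 6.45 with FGF2 and 6.90, 7.77 and 5.99 with BMP4. It rose with BMP4 in PA6 cells (1.87 ± 0.403, adjusted p = 0.0196) and its co-culture groups overlapped. AQP7, the channel through which fat cells release glycerol, read 6.38, 5.17 and 5.81 in -GFs medium, 4.96, 4.95 and 4.95 with FGF2 and 6.90, 7.48 and 6.44 with BMP4 in PA6 cells. Its co-culture levels were 5.09, 5.13 and 5.09 in -GFs medium, 4.95, 4.89 and 4.93 with FGF2 and 5.28, 5.40 and 5.21 with BMP4, where it was not detected. It rose with BMP4 in PA6 cells (1.15 ± 0.249, adjusted p = 0.0204), where 1 of the 3 -GFs arrays detected it. The call was lost under 6 of 19 alternative settings, with 0.61 after the cubic spline. SLC2A4, the insulin-responsive glucose carrier, was detected on 3 arrays in all and was not called.

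Triglyceride synthesis held 3 of the 7 genes raised by BMP4 in PA6 cells. DGAT2 catalyses the last step of the pathway. It read 9.38, 10.12 and 9.55 in -GFs medium, 8.53, 8.67 and 8.23 with FGF2 and 11.42, 13.14 and 11.68 with BMP4 in PA6 cells. In co-cultures it read 8.48, 9.41 and 7.92 in -GFs medium, 8.40, 8.61 and 7.70 with FGF2 and 10.48, 12.10 and 9.30 with BMP4. It rose with BMP4 in PA6 cells (2.39 ± 0.575, adjusted p = 0.037). The co-culture change of 2.03 had an adjusted p of 0.129, and of 0.00519 with replicate as a block, past the threshold. The FGF2 change in PA6 cells was -1.21 with an adjusted p of 0.198, although the 3 FGF2 arrays lay below the -GFs arrays.

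ACSL1 activates fatty acids for storage. Its log2 level was 9.75, 10.16 and 9.80 in -GFs medium, 9.10, 9.28 and 9.14 with FGF2 and 11.19, 13.00 and 11.69 with BMP4 in PA6 cells. With ES cells present it read 8.39, 8.94 and 8.16 in -GFs medium, 8.32, 8.23 and 8.15 with FGF2 and 10.08, 11.60 and 9.37 with BMP4. BMP4 arrays lay above -GFs arrays in both culture types, and the gene rose in PA6 cells (2.05 ± 0.457, adjusted p = 0.0239) and in co-cultures (1.85 ± 0.457, adjusted p = 0.0741), where the call was lost under 12 of 20 alternative settings, while the change ran from 1.23 to 2.34 over all 20. AGPAT2, which makes phosphatidic acid, read 10.59, 10.58 and 10.77 in -GFs medium, 10.29, 10.79 and 10.34 with FGF2 and 11.69, 12.48 and 11.41 with BMP4 in PA6 cells. Its co-culture levels were 9.66, 9.86 and 9.70 in -GFs medium, 10.20, 10.36 and 9.98 with FGF2 and 10.39, 11.26 and 10.11 with BMP4. It rose with BMP4 in PA6 cells (1.21 ± 0.274, adjusted p = 0.0258).

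GPD1, which supplies the glycerol backbone, read 6.69, 6.64 and 7.17 in -GFs medium, 5.55, 5.72 and 6.12 with FGF2 and 7.07, 8.01 and 7.60 with BMP4 in PA6 cells, and was not detected with FGF2. It was at least 1.49-fold lower with FGF2 (adjusted p = 0.0196), a call lost under 8 of 19 alternative settings. Among these were the cubic spline normalization named in the study's methods and the quantile normalization without background correction, each with -0.51 in place of a fitted -1.03, and leaving out -GFs replicate 3, FGF2 replicate 1 or FGF2 replicate 2. In co-cultures it read 6.05, 5.27 and 5.76 in -GFs medium, 5.67, 6.08 and 5.59 with FGF2 and 6.39, 5.89 and 5.43 with BMP4, with 1 of 3 arrays detected in each group. DGAT1, GPAM and PCK1 were not called for either factor, with log2 changes from -0.77 to 0.79.

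The lipases were not called against -GFs medium. PNPLA2, which starts triglyceride breakdown, read 11.36, 11.70 and 11.49 in -GFs medium, 10.51, 10.46 and 10.66 with FGF2 and 11.78, 13.02 and 12.02 with BMP4 in PA6 cells. With ES cells present it read 11.09, 11.12 and 11.40 in -GFs medium, 11.12, 10.88 and 11.08 with FGF2 and 11.45, 11.98 and 11.51 with BMP4. Its PA6 change with FGF2 was -0.97 (adjusted p = 0.0113), just under the fold limit, with the 3 FGF2 arrays below the others. LIPE, hormone-sensitive lipase, read 5.43, 6.79 and 5.88 in -GFs medium, 5.68, 5.39 and 5.96 with FGF2 and 6.50, 7.18 and 6.98 with BMP4 in PA6 cells. Its co-culture levels were 5.68, 5.34 and 5.29 in -GFs medium, 5.09, 5.87 and 5.36 with FGF2 and 5.13, 5.66 and 5.63 with BMP4. These are values of probe ILMN_2742636, detected on 4 arrays, of which 3 were PA6 BMP4 arrays and none a co-culture array. A second kept probe (ILMN_3111326), detected on 5 arrays, among them 1 of each co-culture group, had a log2 change of 0.11 with FGF2 in PA6 cells, where the first had -0.36.

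Among genes of fatty acid oxidation and related metabolism, CAR3 and CPT1A were called. CAR3, a carbonic anhydrase abundant in fat, read 7.66, 6.95 and 8.10 in -GFs medium, 4.92, 4.88 and 4.96 with FGF2 (not detected) and 6.84, 5.03 and 6.67 with BMP4 in PA6 cells. It was at least 2.48-fold lower with FGF2 (adjusted p = 3.04e-04) and fell with BMP4 (-1.39 ± 0.409, adjusted p = 0.0982), the direction opposite to that of the other BMP4 calls except ANGPTL4. The BMP4 call was lost under 11 of 19 alternative settings, with -0.83 after the cubic spline and -0.82 without BMP4 replicate 2. In co-cultures it read 7.40, 7.30 and 7.24 in -GFs medium, 5.18, 6.29 and 6.51 with FGF2 and 5.58, 5.78 and 6.04 with BMP4, and it fell with FGF2 (-1.32 ± 0.409, adjusted p = 0.0702), a call lost under 10 of 19 settings, with -0.72 after the cubic spline. The BMP4 change there was -1.51 with an adjusted p of 0.108, and of 0.0225 with replicate as a block, past the threshold.

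CPT1A, the gate of fatty acid entry into mitochondria, read 8.34, 8.33 and 8.56 in -GFs medium, 6.90, 6.11 and 7.11 with FGF2 and 8.29, 7.81 and 8.30 with BMP4 in PA6 cells. It fell with FGF2 (-1.70 ± 0.213, adjusted p = 3.99e-05). With ES cells present it read 5.57, 5.62 and 5.16 in -GFs medium, 5.28, 5.24 and 5.08 with FGF2 and 5.36, 5.51 and 5.30 with BMP4 and was detected on no array. ACADM and PDK4, which act in oxidation of fatty acids and in sparing glucose, were not called for either factor, with log2 changes from -0.97 to 0.57.

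Most of the genes were highest, among the BMP4 arrays, on that of replicate 2. In PA6 cells this held for 24 of the 34 genes (70.6%, against 32.2% of all genes), and in co-cultures 22 of 34 (64.7%, against 33.3%). Without PA6 BMP4 replicate 2 only PLIN and ANGPTL4 remained called for BMP4 in PA6 cells (2 in place of 9, with 1.1% of all genes in place of 1.41%). The log2 changes of the other 7 were then 1.86 for DGAT2, 1.53 for ACSL1, 1.44 for FABP5, 1.09 for LPL, 0.90 for AGPAT2, 0.88 for AQP7 and -0.82 for CAR3. The calls of LPL and DGAT2 were also lost without PA6 -GFs replicate 3, at 1.27 and 2.33, that of LPL without -GFs replicate 2, at 1.18, and that of DGAT2 without -GFs replicate 1, at 2.24. AQP7 lost its call without -GFs replicate 2, at 0.84, and CAR3 without -GFs replicate 1 or 3, at -1.34 and -1.13. Without all arrays numbered 2 there were 3 calls in PA6 cells (PLIN, DGAT2 and ACSL1) and 0 in co-cultures for BMP4, and 8 and 0 for FGF2. That setting was added after the data were seen. For BMP4 in co-cultures, ADIPOQ alone was called once any of -GFs replicates 1 and 3 and BMP4 replicate 2 was dropped (1.12%, 0.827% and 0.565% of all genes). Once BMP4 replicate 3 was dropped, 6 genes were called (0.888%). Without -GFs replicate 1, -GFs replicate 3 and BMP4 replicate 2, in that order, CFD changed by 3.15, 2.40 and 2.41, next to 3.19 with all arrays, and ACSL1 by 1.80, 1.69 and 1.23, next to 1.85. For FGF2 there, 0 were called once -GFs replicate 2 was dropped (2.6% of all genes), and 1 once -GFs replicate 1 (3.93%) or FGF2 replicate 1 (2.53%) or 3 (4.02%) was.

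For 6 of the 7 genes called for BMP4 in co-cultures with replicate as a block, the changes taken within replicate sets spanned a narrower range than the 3 BMP4 levels. The BMP4 change of ADIPOQ against the -GFs array of the same number was 3.70, 3.26 and 3.40 in sets 1, 2 and 3. That of CFD was 2.69, 3.09 and 3.78, of CIDEC 1.92, 2.64 and 2.38, of PPARG 0.96, 1.59 and 1.06, of DGAT2 2.00, 2.70 and 1.38 and of ACSL1 1.69, 2.65 and 1.21. All 18 of these differences were above 0. The genes were chosen by the blocked fit of these same values, so the shared sign and the narrower ranges follow largely from that choice. The changes of CAR3, -1.82, -1.52 and -1.19, spanned a wider range than its BMP4 levels. With FGF2 the differences were -1.38, -3.90 and -1.84 for ADIPOQ, -1.16, -2.40 and -1.18 for CFD and -1.16, -1.35 and -1.24 for G0S2, all below 0. These genes too were called with replicate as a block.

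**Figure D3:**
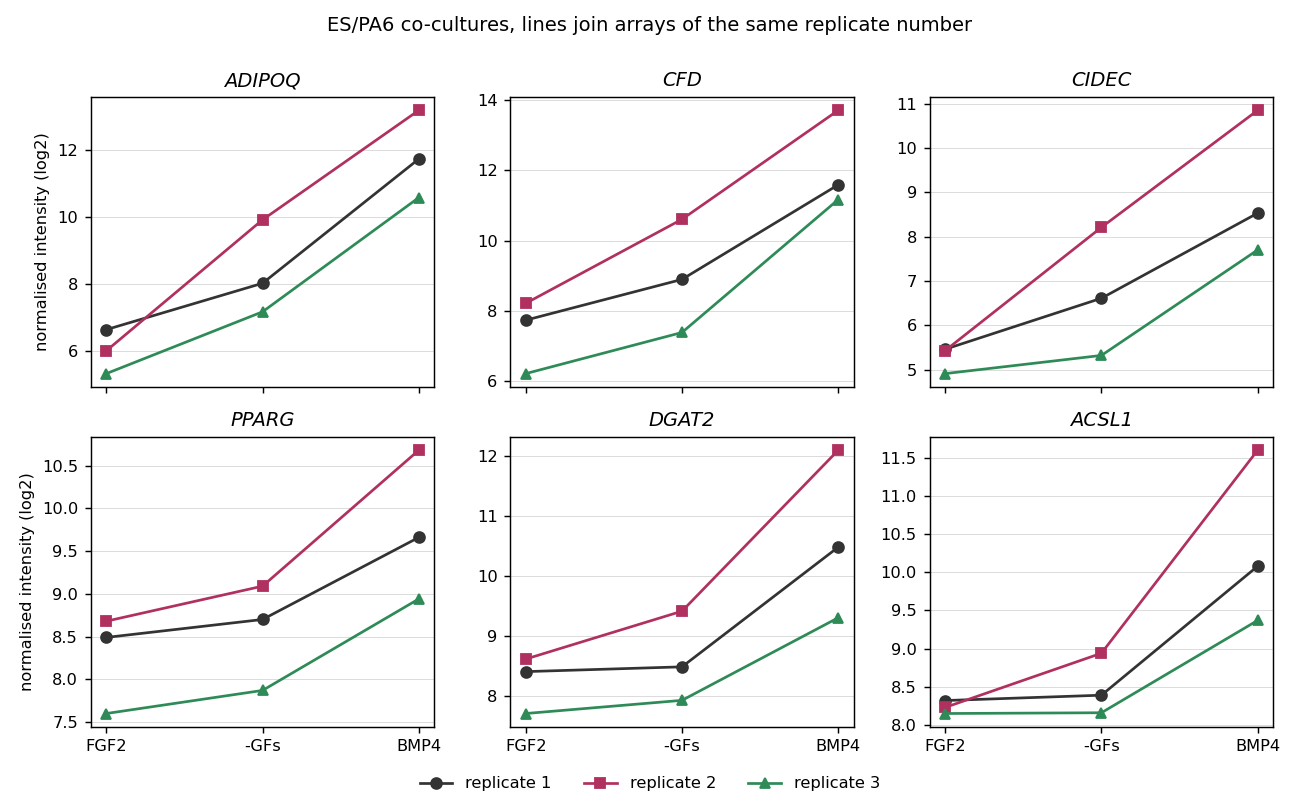
Normalised log2 intensity of 6 genes (y axis) in ES/PA6 co-cultures with FGF2, in -GFs medium and with BMP4 (x axis); each line joins the 3 arrays of 1 replicate number. Replicate 2 was the highest line for each gene in -GFs medium and with BMP4, and each line ended higher with BMP4 than in -GFs medium, with ADIPOQ differences between 3.26 and 3.70. The 6 genes are among those called higher with BMP4 when replicate was a block.

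Set directly against each other, the 2 factors separated more of the genes. In PA6 cells 19 of the 34 genes were called (5.82% of all genes), 18 lower with FGF2 than with BMP4 (2.94%) and 1, ANGPTL4, higher (2.88%). Among the 18, PLIN, AQP7 and LIPE passed the detection limit through the PA6 BMP4 arrays and were not detected with FGF2. Their place among the lower genes was thus largely set by the filter. ADIPOQ differed by -6.50 (SE 0.658), CFD by -6.44, LPL by -4.01 and DGAT2 by -3.60 on the log2 scale, and CIDEC was at least 52.1-fold lower (limma adjusted p between 2.91e-07 and 3.53e-04 for these 5). PPARG, CEBPA, GPAM, LIPE and PNPLA2, not called against -GFs medium, were called here, LIPE by 1 of its 2 kept probes (-1.21, against -0.35 for the other, and -0.78 and not called for their mean), with PNPLA2 at -1.73 (adjusted p = 9.84e-05). PPARG, CEBPA, GPAM and LIPE lost this call without all arrays numbered 2. In co-cultures 7 were called (2.85% of all genes), all lower with FGF2 (1.03%), ADIPOQ, CFD, CIDEC, G0S2, PPARG, DGAT2 and ACSL1, and 0 higher (1.82%). ADIPOQ differed by -5.83 (SE 0.658, adjusted p = 7.74e-05), CFD by -4.76, and CIDEC was at least 8.9-fold lower. Without BMP4 replicate 2 of the co-cultures 4 of these 7 were called (2.28% of all genes).

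Without growth factors, 15 of the 34 genes differed between co-cultures and PA6 cells alone (39% of all genes), 13 lower in co-cultures (19.5%) and 2 higher (19.4%). The lower ones included ADIPOQ (-3.21 ± 0.658, adjusted p = 3.99e-04), CFD (-3.29 ± 0.734, adjusted p = 8.49e-04), CIDEC (-3.98 ± 0.66, adjusted p = 5.41e-05), PPARG (-1.78 ± 0.401, adjusted p = 9.11e-04), CEBPA (-2.35 ± 0.411, adjusted p = 9.18e-05) and PDK4 (-2.77 ± 0.235, adjusted p = 3.08e-08). CPT1A was at least 5.75-fold and KLF15 at least 1.68-fold lower. Both were detected on PA6 arrays only, CPT1A on 8 and KLF15 on 5, and passed the detection limit through them. Their place among the lower genes was thus largely set by the filter. The median over the 34 genes was -0.72 and over all genes -0.11. The stromal markers were lower as well, with a median of -1.59 and 8 of 10 called lower, and their part in the result was not tested. Fewer fat cells and less RNA per cell cannot be told apart in such a mixture.

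The genes that stood higher in co-cultures were APOE and ZFP423. APOE read 9.95, 10.45 and 10.96 in co-cultures and 6.47, 6.31 and 6.25 in PA6 cells, a log2 difference of 4.11 (SE 0.272, adjusted p = 1.67e-09). ZFP423, not detected in PA6 cells, was at least 1.23-fold higher. It passed the detection limit through the 9 co-culture arrays, so its place among the higher genes was largely set by the filter. LPL kept a level of 10.41 ± 0.332 in co-cultures against 9.59 ± 0.154 in PA6 cells (mean ± SD, n = 3), a difference of 0.82 under the fold limit. A second kept probe of PDK4 (ILMN_1216259) had a difference of -0.59 where the first had -2.77.

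Whether the change with a factor differed between the culture types was tested as the difference of its changes. RNA of a co-culture mixed both cell populations, so a difference does not show that the factor acted differently on the stroma. In -GFs medium LPL stood at 10.41 in co-cultures and 9.59 in PA6 cells, and ANGPTL4 at 10.00 and 9.19. CFD stood at 7.39 and 7.47 with FGF2 and at 8.97 and 12.26 in -GFs medium. The part of the ES cells was not tested. For FGF2 the difference was called in 6 of the 34 genes (7.39% of all genes), 5 of them higher (3.99% of all genes), CFD, CIDEC, LPL, GPD1 and CPT1A, which were called lower with FGF2 in PA6 cells and, without replicate as a block, not in co-cultures, and 1 lower (3.4%), ANGPTL4. LPL differed by 2.55 (SE 0.428, adjusted p = 0.00127) and ANGPTL4 by -1.90 (SE 0.312, adjusted p = 0.00108). ADIPOQ, with 2.28 (adjusted p = 0.14), was not called. CPT1A was not detected in co-cultures, CIDEC in neither FGF2 group, and GPD1 not in PA6 cells with FGF2 and on 1 of 3 arrays in each co-culture group, so that their fall could not be followed below the detection limit there. The GPD1 difference (adjusted p = 0.0864) was no longer called under 15 of 24 alternative settings, and that of CFD (adjusted p = 0.0621) under 8 of 25. For BMP4 the difference was called in 0 of the 34 genes by limma (0.559% of all genes, 0.249% higher and 0.31% lower). An unadjusted limma p under 0.05 was seen for 4 of the 34 and for 1602 of all 16446 genes. The differences ran from -1.48 to 1.60. With replicate as a block the count of called genes was 2, CFD and ANGPTL4 (1.85% of all genes). With array weights or a trended and robust prior it was 1, ANGPTL4 (0.827% and 0.578% of all genes).

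**Figure D4:**
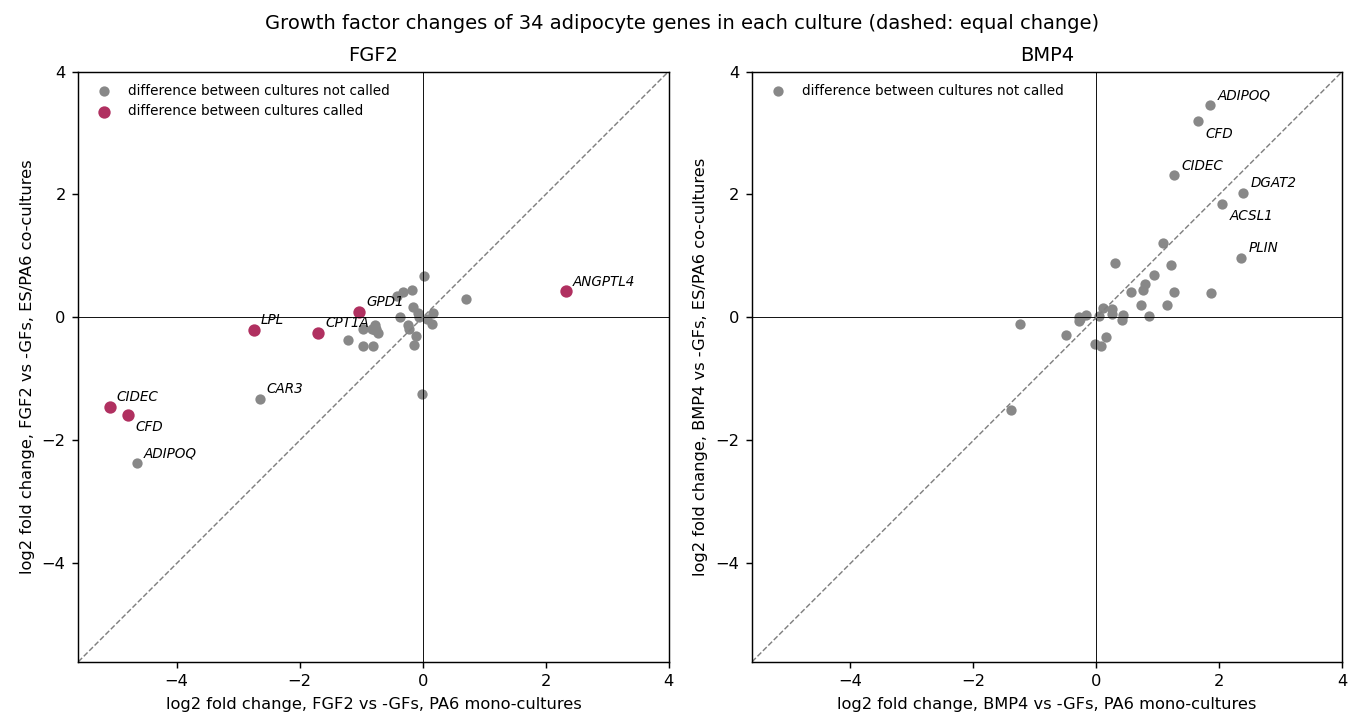
Log2 fold change against -GFs of the 34 genes in PA6 mono-cultures (x axis) and in ES/PA6 co-cultures (y axis), for FGF2 (left) and BMP4 (right); the dashed line marks equal changes and coloured points the 6 genes whose difference between culture types was called. Under FGF2, LPL stood at -2.75 in PA6 cells and -0.20 in co-cultures, and under BMP4 no difference was called.

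A wider list of the pathway was read the same way. Of 78 further genes of fat cell regulation and lipid handling, 63 were tested. FGF2 in PA6 cells lowered 5 of them (2.56% of all genes) and raised 4 (2.71%). The lower ones were S3-12, another droplet coat protein (-3.01 ± 0.479, adjusted p = 3.96e-04), MGLL, which cleaves monoglyceride (-2.69 ± 0.331, adjusted p = 3.32e-05), AGT, the precursor of angiotensin (-2.23 ± 0.476, adjusted p = 0.00428), the oxidation enzyme ECH1 (-1.04 ± 0.124, adjusted p = 2.62e-05) and the acyltransferase AGPAT9, at least 1.67-fold (adjusted p = 0.0125). S3-12 read 12.56, 12.16 and 11.90 in -GFs medium and 9.14, 9.23 and 9.23 with FGF2, and MGLL read 10.51, 10.49 and 10.41 and 7.75, 7.88 and 7.70, groups without overlap. The higher ones included VLDLR (at least 1.34-fold, adjusted p = 0.00209) and the acyl-CoA synthetases ACSL3 (1.52) and ACSL4 (1.78).

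With BMP4 in PA6 cells 1 of the 63 rose, AGPAT9 (1.65 ± 0.443, adjusted p = 0.0651; 0.839% of all genes were higher), and 1 fell, the transcription factor KLF4 (-1.07 ± 0.24, adjusted p = 0.0255; 0.572% were lower). In co-cultures FGF2 raised KLF4 (1.80), KLF5 (1.52), FABP3 (1.42), ANGPTL2 (2.65) and SLC25A20 (1.06), 5 of the 63 (2.14% of all genes), and lowered 0 (1.2%), with an unadjusted limma p under 0.05 for 23 of the 63 and for 2924 of all 16446 genes. BMP4 there changed 0 of the 63 in limma (0.76% of all genes), with an unadjusted p under 0.05 for 17 of the 63 and for 1786 of all 16446 genes. The median changes of the 63 genes were -0.17 with FGF2 and 0.05 with BMP4 in PA6 cells, and 0.07 and 0.18 in co-cultures. KLF5 was detected on no PA6 array, with log2 group means of 5.21 to 5.48 there and 12.04 to 13.57 in co-cultures. FABP3 was detected on 1 PA6 -GFs and 1 PA6 FGF2 array, with means of 5.70 to 6.15 against 11.12 to 12.54. KLF4, ANGPTL2 and SLC25A20 were detected on every array of both culture types. The part of the ES cells in these rises was not tested.

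Markers of other cell types were set beside these results. Of the stromal list, 1 of 10 fell with FGF2 in either culture type, THY1 (2.56% of all genes in PA6 cells and 1.2% in co-cultures), and 1 of 10 with BMP4, COL3A1 (0.572% and 0.45%), and the medians were between -0.43 and -0.26. SPP1, of the osteoblast list, rose with FGF2 in PA6 cells (5.01 ± 0.586, adjusted p = 2.25e-05) and in co-cultures (1.95 ± 0.586, adjusted p = 0.0613). Of the defining factors of that list, SP7 was not detected in either FGF2 group and RUNX2 had no kept probe. BGLAP1 was lower with FGF2 in PA6 cells. Of 10 macrophage markers 5 were kept, with a summed intensity of 2570 to 4090 in PA6 cells and 703 to 1520 in co-cultures. EMR1, PTPRC and ITGAM were among those without a kept probe. LYZ2 was the macrophage marker called, lower with FGF2 in PA6 cells. Of 8 kept endothelial markers TEK fell with FGF2 (2.56% of all genes) and EGFL7 rose with BMP4 (0.839%) in PA6 cells, and CLDN5 fell with FGF2 (1.2%) and PECAM1 rose with BMP4 (0.31%) in co-cultures. In co-cultures 3 of 9 kept pluripotency markers rose with FGF2 (2.14% of all genes) and 1 fell (1.2%), and ZIC1, of 3 kept neural markers, fell with BMP4 (0.45%). The 3 kept visceral endoderm markers were not called for either factor. The part of these markers in the results on fat cell genes was not tested.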

How the data were processed

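Total RNA of 18 cultures was labelled as biotinylated cRNA and hybridised to bead arrays, and the authors deposited the non-normalized table of GenomeStudio 2011.01 (named in the submitters' processing notes). Its intensity values were deposited on a linear scale, and the detection p-values beside them were deposited as computed by the authors' software against negative control beads. The study's methods name cubic spline normalization, detected probes, the brightest probe per gene and limma. Genome build and annotation of the probes are not given in the sources used here. All columns were matched to samples by name, and groups, replicate numbers and doses came from the labels. The label dose of BMP4, 10 ng/ml, is higher than the dose in the study's methods.

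Here 45281 probes were read, leaving out 5 shifted lines. Intensities were corrected and quantile-normalized with neqc (limma 3.58.1, R 4.3.3, offset 16) and taken to log2. Kept were 22987 probes that 3 or more arrays detected (detection p below 0.05), and the probe with the largest mean stood for a gene. All 18 arrays entered 1 limma fit of 6 group means, with Benjamini-Hochberg adjustment over 16446 genes within a comparison. All adjusted p values printed are from limma. The number of arrays limits the precision, and an exact permutation of 3 against 3 could not go below a p of 0.1. For some genes detected on no array of a group a bound is given, and other values of such genes are fitted ones. The bound is the other group's mean over the higher of the gene's own signal and the lowest detected signal of each array. The fit was tested on simulated data.

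Same-numbered arrays deviated together in co-cultures (r of 0.325 to 0.521 over 9 pairs), so the numbers were taken to pair co-culture arrays. Different numbers gave -0.433 to -0.0305, which is no independent contrast, since deviations from a group mean cancel within each group. In PA6 cells the range for the same number was 0.0628 to 0.164, which did not meet the limit of 0.1 in every pair.

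The 40 genes, the wider list and the marker lists were chosen with earlier results of these data known. Named with values in every sample were genes called in any of the 4 comparisons with -GFs medium and 15 defining genes of the list where measured. Promoter sequences are from RefSeq (GRCm38.p6). Alternatives covered normalization, the filter on dim probes, the probe of a gene, the replicate block, the arrays in the fit, the variance model, the thresholds and leaving out each array. The values of 1 called gene of the wider list are not reported here.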

Additional observations from a re-analysis of the deposited data

Results flagged for a closer look

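Of the 34 genes, 6 were set apart because their FGF2 change differed between co-cultures and PA6 cells by a test of the difference itself, given here as co-culture change minus PA6 change on the log2 scale with the adjusted p from limma. CFD had 3.21 (adjusted p = 0.0621), CIDEC 3.64 (0.0205), LPL 2.55 (0.00127), GPD1 1.13 (0.0864), CPT1A 1.45 (0.00584) and ANGPTL4 -1.90 (0.00108). CIDEC was not detected in either FGF2 group, CPT1A on no co-culture array, and GPD1 on no PA6 FGF2 array and on 1 of 3 arrays in each co-culture group, so that their values are fitted ones near the detection limit. CFD, LPL and ANGPTL4 were detected in all 6 groups, and the CFD difference lost its call under 8 of 25 alternative settings. Co-culture RNA mixed both cell populations, so these differences do not show that FGF2 acted differently on the stroma.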

How the results depend on the processing

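Counts of called genes among the 34 are given for each setting that moved them by more than 1.5 times, and the cause was not tested except where fewer genes or arrays entered. After the cubic spline 1 gene was called for FGF2 in co-cultures (1.66% of all genes). With probes detected on all 18 arrays, which left 15 of the genes, the counts were 2 for FGF2 and 4 for BMP4 in PA6 cells, 1 for FGF2 in co-cultures, 7 for FGF2 against BMP4 in PA6 cells, 7 between culture types and 2 for the difference in FGF2 change. With the replicate block they were 5 for FGF2 and 7 for BMP4 in co-cultures and 2 for the difference in BMP4 change (CFD and ANGPTL4). The block on PA6 arrays, whose numbers were not taken as pairs, raised the BMP4 count from 9 to 13, adding ADIPOQ, CFD, CIDEC and PPARG. With only co-culture arrays in the fit they were 1 for FGF2 (2.49% of all genes), 0 for BMP4 (0.0608%) and 4 for FGF2 against BMP4 there (1.74%). The trended and robust prior and the array weights each gave 1 for the difference in BMP4 change. An adjusted p under 0.05 left 1 for FGF2 and 1 for BMP4 in co-cultures (3.04% and 0.48% of all genes). Without a fold limit the counts were 16 for FGF2 in PA6 cells (18.7% of all genes), 5 and 5 for FGF2 and BMP4 in co-cultures (9.05% and 1.7%) and 23 between culture types (71.2%). Without all arrays numbered 2, a setting chosen after seeing the data, they were 3 for BMP4 in PA6 cells and 0 for either factor in co-cultures. Leaving out 1 array at a time gave 7 to 10 for FGF2 and 2 to 10 for BMP4 in PA6 cells, 0 to 4 and 1 to 6 in co-cultures, 15 to 18 and 4 to 8 for FGF2 against BMP4, 14 to 16 between culture types, and 4 to 6 and 0 to 1 for the differences in FGF2 and BMP4 change. In the same order, the shares over all genes were 4.86% to 5.73%, 1.1% to 1.44%, 2.53% to 4.02% and 0.316% to 1.12%. The others were 5.47% to 6.07%, 2.28% to 3.13%, 38.2% to 40.5%, 6.5% to 7.84% and 0.255% to 0.736%. The 1 BMP4 difference was PLIN, without co-culture BMP4 replicate 2. For single genes under all settings 1392 values kept side and direction, 166 lost their call, 31 gained one and 0 changed sign. Over all genes FGF2 in PA6 cells gave 867 calls, 531 after the cubic spline and 3083 without a fold limit, and BMP4 in co-cultures gave 125, 67 after the cubic spline, 215 with the block and 10 with only co-culture arrays. The slide as a block was not run, since the table names no slide.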
